A study of Mus musculus with 16 samples.

Results

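The genes described here are the NR4A family of nuclear receptors, *Nr4a1* (Nur77), *Nr4a2* (Nurr1) and *Nr4a3* (Nor1), and the EGR zinc finger transcription factors *Egr1*, *Egr2* and *Egr3*. They were chosen by name as members of these families and are 6 of the 31053 genes in the lung and mesenteric lymph node (MLN) matrices and of the 32285 genes in the matrix of mediastinal lymph node (medLN) and MLN. CD4+ T cells were sorted from female 4get mice on the C57BL/6 background, in which eGFP reports transcription of the *Il4* locus, at day 10 after 500 larvae of *Nippostrongylus brasiliensis* were injected. In the first experiment CD4+IL-4eGFP+ cells came from the lung and MLN of 2 mice aged 13 weeks, as 1 library for each organ and mouse, named lung 1, lung 2, MLN 1 and MLN 2. In the second experiment medLN and MLN cells of 2 other mice aged 10 weeks were marked with hashtag antibodies, sorted by the reporter for each organ and mouse and then pooled within a gate, with 1 library for IL-4eGFP+ and 1 for IL-4eGFP- cells, which gave 8 samples of mouse, organ and gate. Uninfected mice are not among the groups analysed here. Lungs were perfused and still held some intravascular cells. Lungs were digested with enzymes whereas nodes were only mashed, so organ and preparation cannot be told apart, nor can the gate and its single library.

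NR4A and EGR genes are immediate early genes, which are transcribed within minutes of a signal without new protein synthesis, and in T cells the antigen receptor is such a signal. NR4A proteins act without a known ligand, and *Nr4a1* responds to calcium through MEF2 factors. EGR genes respond to the MAP kinase ERK through SRF and its ELK partners, and *Egr2* and *Egr3* also to the calcium-dependent NFAT factors. EGR2, EGR3 and NR4A proteins are known as brakes on T cells that drive inhibitory receptors and regulators of receptor signaling such as *Cblb*, while EGR1 is a common marker of recent stimulation.

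The promoters of the NR4A genes are shown because they share a motif that the choice of genes did not use. In RefSeq promoter windows of GRCm38.p6, each 250 bases before a transcription start, the CRE core TGACG, searched on both strands, was found in 17.8% of 32851 windows of 27025 genes. The windows of *Nr4a1*, *Nr4a2* and *Nr4a3* each held 4 cores, and 45 windows in all (0.137%) held at least 4. In the GENCODE annotation of GRCm38 *Nr4a1* lies at chr15:101254269-101274795, *Nr4a2* at chr2:57106830-57124003, *Nr4a3* at chr4:48045153-48086447, *Egr2* at chr10:67535475-67542188 and *Egr3* at chr14:70077203-70082614. The *Nr4a1* window is at chr15:101266596-101266845 on the plus strand, inside an intron of a longer annotated *Nr4a1* transcript. The *Nr4a2* window is at chr2:57124004-57124253 on the minus strand, upstream of the annotated gene, and partly overlaps a coding exon of a predicted RefSeq gene model. They read 5′ to 3′, with the CRE cores in capitals:
Nr4a1: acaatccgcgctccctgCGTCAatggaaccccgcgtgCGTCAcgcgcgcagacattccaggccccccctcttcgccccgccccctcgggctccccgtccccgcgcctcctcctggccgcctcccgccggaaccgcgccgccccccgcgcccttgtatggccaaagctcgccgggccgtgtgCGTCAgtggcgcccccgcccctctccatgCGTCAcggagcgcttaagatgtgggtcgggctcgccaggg
Nr4a2: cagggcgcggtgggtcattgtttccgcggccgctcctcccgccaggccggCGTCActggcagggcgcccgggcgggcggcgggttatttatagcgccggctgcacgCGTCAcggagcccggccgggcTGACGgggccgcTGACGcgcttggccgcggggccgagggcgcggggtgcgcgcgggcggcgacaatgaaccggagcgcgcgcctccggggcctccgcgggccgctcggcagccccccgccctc

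For contrast, an *Egr2* window is shown at chr10:67537316-67537565 on the plus strand, which lies in an intron of longer *Egr2* transcripts. It held no CRE core but a CArG box, the SRF site, which is in capitals below and occurs in 1.47% of windows:
Egr2: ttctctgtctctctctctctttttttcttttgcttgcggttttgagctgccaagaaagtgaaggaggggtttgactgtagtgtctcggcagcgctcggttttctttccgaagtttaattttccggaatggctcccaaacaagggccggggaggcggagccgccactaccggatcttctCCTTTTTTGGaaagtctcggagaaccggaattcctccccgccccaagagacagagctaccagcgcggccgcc
The windows of 3 *Egr2* starts further downstream overlap and hold the same CArG box and the same 2 CRE cores. That of the start furthest upstream held no motif searched. No window of a member held a full CRE, TGACGTCA, which includes the core on both strands and occurs in 1.55% of windows, an NBRE, AAAGGTCA, the NR4A site, in 1.34%, or an EGR site, GCGTGGGCG, in 0.536%. The NFAT core GGAAA, in 55.6% of windows, was found in 4 of the 5 *Egr2* windows and in that of *Nr4a2*. The 3 overlapping *Egr2* windows hold the same match, and 1 match in the printed *Egr2* window overlaps its CArG box. TATAAA, in 12.4%, was found in that of *Nr4a2*. Most of the *Nr4a3* window is annotated as transcribed and is not printed. *Egr1* and *Egr3* were not in the table. A motif match is a description of letters and no evidence of binding.

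After filters, 4714 cells of the first and 16748 cells of the second experiment were used, with 2798232 to 14512767 and 7546083 to 10636927 UMIs per sample and a median of 4971 to 6910 and 3165.5 to 3666.5 UMIs per cell. The T cell markers *Cd3d*, *Cd3e*, *Cd3g* and *Cd4* summed to 3052 to 4101 CPM over the 12 samples, where CPM, the usual unit of counts scaled to a common library total, is proportional to a gene's share of all UMIs of a sample. The Th2 markers *Il4*, *Gata3* and *Il1rl1* summed to 1736 and 1423 CPM in lung, 618 and 558 CPM in MLN of the first experiment, 344 to 387 CPM in IL-4eGFP+ and 31.6 to 45.4 CPM in IL-4eGFP- samples. The 4 B cell markers summed to at most 43.6 CPM, the 2 CD8 markers to at most 24.0 CPM, the 4 epithelial markers to at most 11.0 CPM and the 5 myeloid markers to 98.7 to 238 CPM. At most 8 cell barcodes were shared between libraries of the first experiment and 147 between the gates. With 2 mice per group, both values are given. Fewer cells with a transcript and fewer transcripts per cell cannot be told apart in summed counts, so shares of cells are given as well.

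The 3 NR4A genes were far higher in lung than in MLN Th2 cells. *Nr4a1* was at 971 and 761 CPM in lung 1 and lung 2, and at 30.5 and 31.2 CPM in MLN 1 and MLN 2. *Nr4a2* was at 174 and 135 CPM in lung and 3.95 and 6.29 CPM in MLN. *Nr4a3* was at 192 and 108 CPM in lung and 8.45 and 10.3 CPM in MLN. For each of these genes the lower lung library was more than 10 times above the higher MLN library. By edgeR's quasi-likelihood test with Benjamini-Hochberg adjustment over 10587 genes, the log2 fold change was 4.96 (SE 0.20, adjusted p = 4.44e-07) for *Nr4a1*, 5.21 (SE 0.24, adjusted p = 9.43e-07) for *Nr4a2* and 4.22 (SE 0.31, adjusted p = 1.00e-05) for *Nr4a3*. Counted from the highest fold change, they ranked 57, 50 and 102 among all genes tested.

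The EGR genes did not move as a block between lung and MLN. *Egr1* was at 113 and 170.3 CPM in lung and 87.3 and 109 CPM in MLN, a log2 fold change of 0.64 (SE 0.16, adjusted p = 0.0154). Both lung values of *Egr1* were above those of MLN, by a gap smaller than the spread between the lungs. *Egr2* went the other way, with 11.7 and 15.4 CPM in lung and 33.9 and 48.3 CPM in MLN, a change of -1.48 (SE 0.20, adjusted p = 0.000603). *Egr3* was at 12.6 and 10.4 CPM in lung and 10.9 and 13.03 CPM in MLN, which overlap, and its difference of 0.17 (SE 0.22, adjusted p = 0.605) did not pass the test. In this comparison 5 of 6 members were called, 4 of them higher in lung, where 31% of all genes tested were called. Fold changes rest on libraries scaled by TMM, which lifts lung against plain library totals: with totals alone the median of all genes was -0.15, 1309 genes were called higher and 2049 lower in lung against 1803 and 1481, and *Egr1* at 0.52 (adjusted p = 0.0725) was not called. Without MLN 1, which leaves 1 MLN sample that is assumed to vary like the lungs, the *Egr1* difference was 0.49 (adjusted p = 0.115), and with cells that lack a TCR pair included it was 2.09 (adjusted p = 0.000381).

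**Figure D1:**
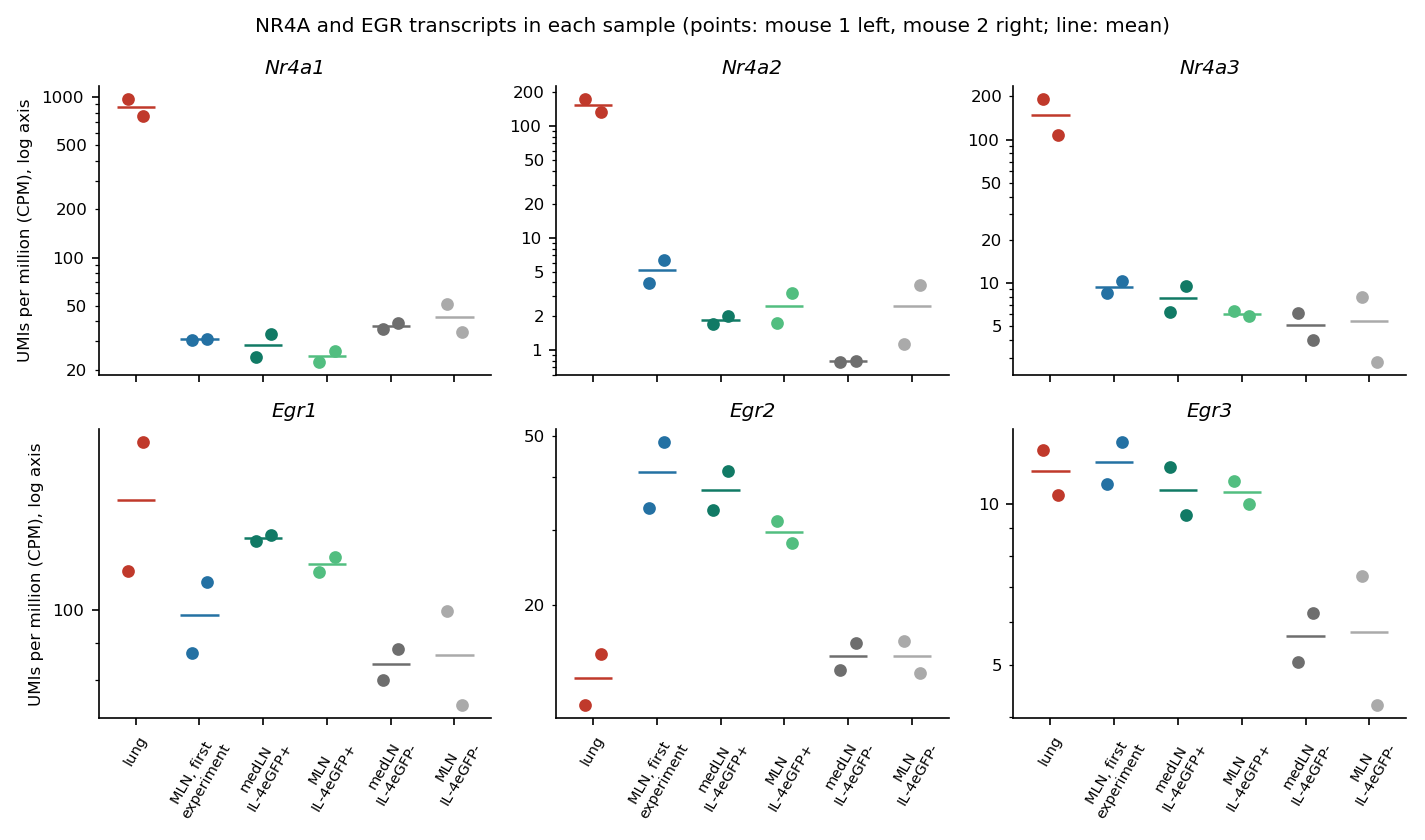
CPM (log axis) of each gene in the 12 samples, with a point for each mouse and a line at the group mean. The 3 NR4A genes stand apart in the 2 lung libraries, at 108 to 971 CPM, whereas *Egr2* was lower in lung than in MLN and IL-4eGFP+ node samples.

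Summed over each family, the order of the families turned between lung and nodes. NR4A UMIs were 9.73 and 5.12 times the EGR UMIs in lung 1 and lung 2, 0.325 and 0.280 times in MLN 1 and MLN 2 and 0.188 to 0.489 times in the 8 samples of the second experiment. *Nr4a1* gave 65.3% to 89.0% of NR4A UMIs and *Egr1* gave 64.1% to 86.8% of EGR UMIs over the 12 samples, so the leading gene of each family was the same in lung and nodes.

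In lung most cells had at least 1 UMI of an NR4A gene. *Nr4a1* was detected in 86.0% of 1082 lung 1 cells (95% exact Clopper-Pearson interval 83.7% to 88.0%) and 75.7% of 416 lung 2 cells (71.3% to 79.8%). In MLN it was detected in 4.75% of 2462 MLN 1 cells (3.95% to 5.67%) and 5.17% of 754 MLN 2 cells (3.70% to 7.003%). These intervals cover counting error only and do not meet between the organs. Those of lung 1 and lung 2 do not meet either, so the intervals do not cover the spread between mice. Cells with *Nr4a1* held 8.86 and 6.74 UMIs of it on average in lung 1 and lung 2, with a highest cell of 70, and 3.77 and 3.56 UMIs in MLN. For *Nr4a1*, both the share of cells with a UMI and the UMIs per such cell were higher in lung. *Nr4a2* was found in 41.7% and 34.9% of lung and 1.71% and 0.796% of MLN cells. *Nr4a3* was found in 57.9% and 38.7% of lung and 2.40% and 1.72% of MLN cells. The UMIs per such cell overlapped between the organs for both genes. They were 3.28 and 2.59 in lung and 1.36 and 4.67 in MLN for *Nr4a2*, and 2.60 and 1.86 and 2.07 and 3.54 for *Nr4a3*. In MLN 2 only 6 cells held *Nr4a2* and 13 held *Nr4a3*. Any NR4A gene was found in 92.1% and 82.2% of lung and 7.27% and 6.50% of MLN cells. After each cell was thinned to 2000 UMIs, with 84 cells of fewer UMIs left out (14, 8, 51 and 11 in lung 1, lung 2, MLN 1 and MLN 2), these shares were 76.7% and 67.2% in lung and 3.77% and 3.23% in MLN. At equal depth the lung and MLN shares stayed apart. Thinned cells with *Nr4a1* held 3.10 and 2.68 UMIs of it in lung and 2.15 and 2.35 UMIs in MLN, a smaller gap.

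For the EGR genes the shares were closer. *Egr1* was detected in 31.3% and 25.96% of lung cells and 17.1% and 19.8% of MLN cells, and in thinned cells in 13.6% and 14.2% of lung and 10.3% and 11.2% of MLN cells. *Egr2* was detected in 6.56% and 5.29% of lung and 7.11% and 10.7% of MLN cells, and in thinned cells in 2.43% and 1.72% of lung and 3.98% and 5.92% of MLN cells. *Egr3* was detected in 5.45% and 4.57% of lung and 3.45% and 4.24% of MLN cells. In thinned cells it was detected in 2.53% and 1.23% of lung and 1.78% and 1.75% of MLN cells, which overlap. As a reference served the IL-4eGFP- node samples, at a median of 3268 to 3371 UMIs per cell. They held *Nr4a1* in 3.55% to 4.26%, *Egr1* in 9.32% to 10.5% and *Egr2* in 2.77% to 3.40% of cells. The MLN shares of *Nr4a1* in the first experiment were within a few percentage points of this reference, and the lung shares were far above it. In thinned cells the MLN shares, 2.78% and 2.29%, lay below the 2.89% to 3.19% of the reference. The lung shares there were 65.4% and 58.6%. The reference comes from other libraries and does not measure free RNA in lung, which was not estimated, so a lung cell with a single NR4A UMI is not shown to express the gene.

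The difference between lung and MLN extended to other genes of early response. Of 26 other immediate early genes 25 were higher in lung and 0 lower, with a median log2 fold change of 2.48 against -0.01 over all genes tested. Of all genes tested 31% were called. Leading were *Atf3* with 8.09 (SE 0.37), the AP-1 subunit *Fosl2* with 7.01 (SE 0.38) and *Klf4* with 6.04 (SE 0.66). The summed level of this list was 16584 and 15099 CPM in lung and 2975 and 2769 CPM in MLN. Of 12 heat shock genes 5 were higher and 0 lower, led by *Hspa1a* with 3.22 (SE 0.43), and their sum was 7341 and 7021 CPM in lung and 6264 and 5749 CPM in MLN. The myeloid markers summed to 129 and 123 CPM in lung and 121 and 139 CPM in MLN. Of the 5 myeloid markers, 3 in lung 1 and 4 in lung 2 had no UMI, against 0 in MLN 1 and MLN 2. The lung sums thus rest on few of these markers. The B cell markers summed to 0.707 and 0.358 CPM in lung and 2.42 and 2.47 CPM in MLN. The epithelial markers summed to 5.07 and 4.30 CPM and 9.07 and 6.96 CPM. What part tissue digestion or other cells have in these levels was not tested.

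Some genes around the members were called between lung and MLN, in both directions. Of 24 partners and upstream regulators 4 were higher and 3 lower in lung, which is near the 31% of all genes called, with a median of 0.14. *Crem*, a cAMP-inducible relative of CREB, was higher with 4.68 (SE 0.36), as were the calcineurin subunit *Ppp3ca* with 1.84 (SE 0.19) and *Mef2a* with 0.84 (SE 0.14). Lower were *Cabin1*, an inhibitor of calcineurin and MEF2, with -0.61 (SE 0.13), the EGR corepressor *Nab1* with -0.40 (SE 0.13) and the SRF partner *Elk4* with -0.36 (SE 0.12). Of 22 inhibitory and feedback genes linked to EGR2, EGR3 and NR4A, 8 were higher and 6 lower, with a median of 0.07. The inhibitory receptor genes *Havcr2* with 5.71 (SE 0.86) and *Ctla4* with 2.51 (SE 0.16) and the death ligand *Fasl* with 2.59 (SE 0.15) were higher. *Tox2* with -2.91 (SE 0.17), *Cd200* with -2.02 (SE 0.14) and the diacylglycerol kinase *Dgkz* with -1.62 (SE 0.12) were lower in lung.

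Between medLN and MLN no member was called by edgeR or DESeq2. In IL-4eGFP+ cells *Nr4a1* was at 24.1 and 33.2 CPM in medLN and 22.4 and 26.2 CPM in MLN, and *Egr1* at 125 and 127 CPM in medLN and 113 and 118 CPM in MLN. *Egr2* was at 33.5 and 41.3 CPM in medLN and 31.5 and 28.04 CPM in MLN, a log2 fold change of 0.32 (SE 0.11, adjusted p = 0.282). Both medLN values of *Egr1* and *Egr2* lay above those of MLN, and those of *Nr4a1* overlapped. Of 6 members 1 had an unadjusted p under 0.05 by edgeR and 0 by DESeq2, as had 1392 of 11262 genes by edgeR and 573 by DESeq2. After adjustment 1.28% of all genes were called. Of the lists, *Ier3* with 1.76 (SE 0.20), *Irf4* with 0.81 (SE 0.13) and *Dusp2* with 0.44 (SE 0.08) were higher in medLN, and *Tox2* with -0.53 (SE 0.09) and *Tigit* with -0.41 (SE 0.07) lower.

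In IL-4eGFP- cells *Nr4a1* was at 36.1 and 38.8 CPM in medLN and 51.3 and 34.1 CPM in MLN, and *Egr1* at 80.2 and 88.3 CPM in medLN and 99.6 and 73.9 CPM in MLN. For both genes the medLN values lay between those of the MLN samples. Of the 5 members tested 0 were called and 0 had an unadjusted p under 0.05 by edgeR or DESeq2, which 666 of 10683 genes had by edgeR and 183 by DESeq2, with 0.178% of genes called (19 genes, or 65 with the mouse as a block). *Nr4a2*, with 6 to 30 UMIs per sample, was under the count filter. Without MLN 2, which leaves 1 MLN sample that is assumed to vary like medLN, the *Nr4a1* difference was -0.49 (adjusted p = 0.000540), and leaving out any 1 sample moved the genes called from 19 to between 98 and 194. Of the lists, *Tigit* with 1.24 (SE 0.18) and *Tnfrsf4* with 1.02 (SE 0.10) were higher in medLN. A test of whether the organ difference itself differed between the gates called 0 of 6 members, with 0 at an unadjusted p under 0.05 by edgeR or DESeq2, where 807 of 11534 genes were by edgeR, and 0.156% of genes called (18 genes, or 44 with the block). Its value was 0.47 (SE 0.26, adjusted p = 0.787) for *Nr4a1* and 0.38 (SE 0.19, adjusted p = 0.757) for *Egr2*.

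MLN IL-4eGFP+ cells of both experiments are set side by side without a test, since mice, age and processing differ. *Nr4a1* was at 30.5 and 31.2 CPM in the first and 22.4 and 26.2 CPM in the second experiment, and *Egr2* at 33.9 and 48.3 CPM and 31.5 and 28.04 CPM. *Nr4a2* was at 3.95 and 6.29 CPM and 1.75 and 3.21 CPM, and *Nr4a3* at 8.45 and 10.3 CPM and 6.33 and 5.85 CPM. *Egr1* was at 87.3 and 109 CPM and 113 and 118 CPM, and *Egr3* at 10.9 and 13.03 CPM and 11.02 and 10.01 CPM. The NR4A genes and *Egr2* were lower in the second experiment, *Egr1* was higher and *Egr3* overlapped.

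Between the gates of the node cells, the CPM of *Nr4a1* and of the EGR genes went opposite ways. *Nr4a1* was at 22.4 to 33.2 CPM in the 4 IL-4eGFP+ and 34.1 to 51.3 CPM in the 4 IL-4eGFP- samples, a log2 fold change of -0.80 (SE 0.14, adjusted p = 0.000366). *Egr2* was at 28.04 to 41.3 CPM in IL-4eGFP+ and 13.9 to 16.5 CPM in IL-4eGFP- samples, a change of 0.94 (SE 0.11, adjusted p = 8.83e-06). *Egr3* was at 9.52 to 11.7 CPM against 4.20 to 7.34 CPM, a change of 0.69 (SE 0.16, adjusted p = 0.00223). For these genes and for *Egr1*, at 113 to 127 CPM against 73.9 to 99.6 CPM with a change of 0.30 (SE 0.08, adjusted p = 0.00456), the gates did not overlap. In all 4 of 6 members were called where 63% of all genes were, so a called member is near the background here. *Nr4a2* with 0.25 (SE 0.41, adjusted p = 0.611) and *Nr4a3* with 0.21 (SE 0.27, adjusted p = 0.519) did not pass. With library totals alone the median of all genes was 0.18, 5173 genes were called higher and 1996 lower against 3450 and 3504, and the 4 members kept their calls and directions. Without MLN 2 IL-4eGFP- the difference of *Nr4a2* was 1.01 (adjusted p = 0.0274), and without MLN 1 IL-4eGFP- that of *Nr4a3* was 0.59 (adjusted p = 0.0346).

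The share of cells with *Nr4a1* was 3.11% to 4.75% in IL-4eGFP+ and 3.55% to 4.26% in IL-4eGFP- samples, and these ranges overlapped. In thinned cells the shares were 2.12% to 3.81% and 2.89% to 3.19% and overlapped as well. So did the *Nr4a1* UMIs per sample, 205 to 314 and 268 to 413, out of 9163678 to 10593214 and 7518857 to 8043338 UMIs. The lower CPM of *Nr4a1* in IL-4eGFP+ samples is a lower share of UMIs. In thinned cells this share of UMIs overlapped between the gates. It was 143 of 3548927 UMIs in medLN 2 IL-4eGFP+ and 125 of 3931253 UMIs in medLN 1 IL-4eGFP- cells. With cells thinned to 2000 UMIs, *Egr1* was found in 11.3% to 14.0% of IL-4eGFP+ and 6.74% to 7.90% of IL-4eGFP- cells, and *Egr2* in 4.24% to 5.63% and 1.83% to 2.11%. The shares of cells with *Egr1* and with *Egr2* did not overlap between the gates.

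Of all genes 63% were called between the gates, 31.3% higher and 31.8% lower, so a call alone sets no list apart. Of 22 inhibitory and feedback genes 14 were higher and 7 lower in IL-4eGFP+ cells, with a median of 0.55 against -0.02 over all genes. They were led by *Tox2* with 4.32 (SE 0.11), the ubiquitin ligase *Rnf128* with 3.42 (SE 0.32) and the PD-1 gene *Pdcd1* with 3.17 (SE 0.12), while *Socs1* with -1.61 (SE 0.11) was lowest. Of 23 other immediate early genes tested 4 were higher and 13 lower, with summed levels of 2824 to 3131 CPM in IL-4eGFP+ and 3745 to 4133 CPM in IL-4eGFP- samples. *Jun* with -1.77 (SE 0.16), *Myc* with -1.74 (SE 0.07) and *Klf2* with -1.36 (SE 0.09) were lower, the direction of *Nr4a1*, and *Ier3* with 3.68 (SE 0.32) and *Irf4* with 1.70 (SE 0.15) higher, the direction of the EGR genes. Of 23 partners tested 7 were higher, such as *Nfatc1* with 1.03 (SE 0.05), and 10 lower, such as *Mef2d* with -1.01 (SE 0.06). Of 11 heat shock genes tested 4 were higher and 4 lower. The 5 myeloid markers summed to 169 to 238 CPM in IL-4eGFP+ and 98.7 to 118 CPM in IL-4eGFP- samples and the 2 CD8 markers to 6.70 to 11.6 CPM and 19.1 to 24.0 CPM. Neither sum overlapped between the gates, while the B cell marker sums, 23.5 to 43.6 CPM and 18.2 to 38.6 CPM, did. The part of these cells in the difference between the gates was not tested.

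**Figure D2:**
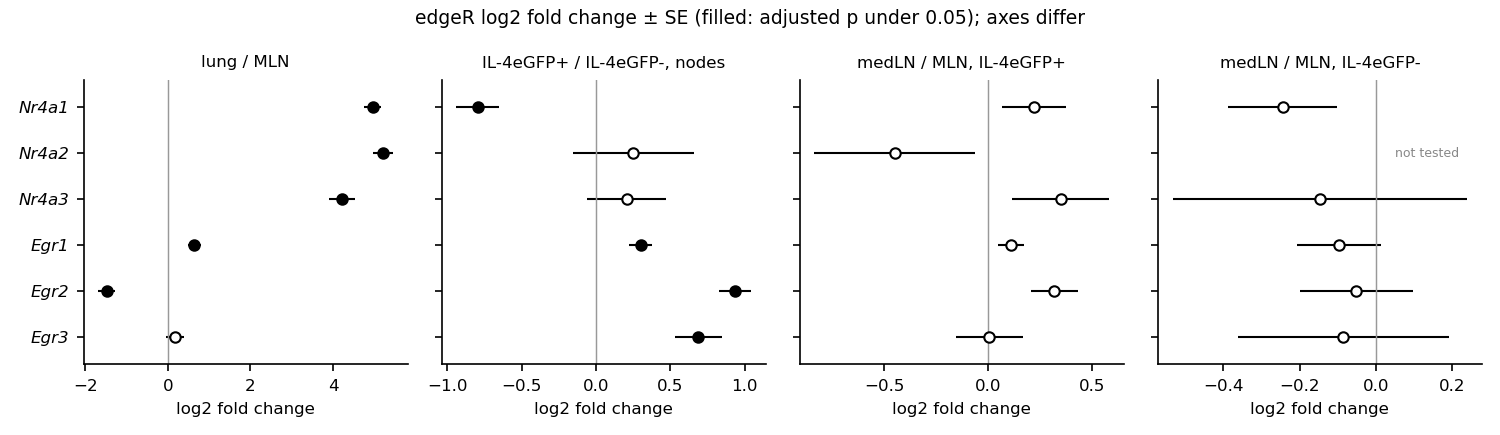
Log2 fold change (point) and standard error (bar) of each gene in the comparisons of organs and gates, filled where called at an adjusted p under 0.05. The NR4A genes lie at 4.22 to 5.21 for lung over MLN, and *Nr4a1* (-0.80) and *Egr2* (0.94) lie on opposite sides of 0 for IL-4eGFP+ over IL-4eGFP- cells.

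Within samples, cells were split by transcripts that mark a function, and the sums of both sets were compared with the sample as a block. In lung, 351 and 88 cells with a UMI of the Th2 effector cytokines *Il5* or *Il13* were compared with the other 731 and 328 cells of lung 1 and lung 2. *Egr1* was at 162 and 255 CPM in cytokine-positive and 86.4 and 142 CPM in the other cells, a log2 fold change of 0.86 (SE 0.10, adjusted p = 7.36e-15). *Egr3* was at 24.6 and 21.3 CPM against 6.03 and 6.72 CPM, a change of 1.90 (SE 0.30, adjusted p = 2.73e-08). *Egr2* was at 13.3 and 45.4 CPM against 10.8 and 5.28 CPM, a change of 1.24 (SE 0.29, adjusted p = 0.000417). All 3 EGR genes were higher in the positive cells of both lungs, *Egr2* by far more in lung 2 than in lung 1, where its values were close. *Egr2* rests on few UMIs, 99 in 71 cells of lung 1 and 43 in 22 cells of lung 2 over both sets.

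The NR4A genes did not follow the EGR genes there. *Nr4a1* was at 1129.5 and 665 CPM in cytokine-positive and 885 and 794 CPM in the other cells, higher in lung 1 and lower in lung 2, with a change of 0.08 (SE 0.07, adjusted p = 0.625). *Nr4a2* was lower, at 162 and 76.6 CPM against 181 and 154 CPM, a change of -0.39 (SE 0.11, adjusted p = 0.00386). Of 6 members 4 were called, 3 of them higher, where 9.59% of genes were called. These calls depend on the fit, which has 1 residual degree of freedom and leans on dispersions that edgeR shares over genes. DESeq2 called 1 member, *Egr1*, and 94 of 9304 genes, and without the block *Egr3* alone was called (adjusted p = 0.0404). In thinned cells *Nr4a2* at -0.21 (adjusted p = 0.794) and *Egr2* at 0.89 (adjusted p = 0.497) were not called, and *Nr4a1* was, at 0.44 (adjusted p = 1.05e-05). Cytokine-positive cells held 8571 and 8016 UMIs on average and the others 7491 and 6355. The myeloid markers summed to 148 and 145 CPM in the positive and 119 and 116 CPM in the other cells of lung 1 and lung 2, and the CD8 markers to 16.3 and 12.8 CPM and 6.76 and 11.0 CPM. The heat shock genes summed to 7747 and 7728 CPM and 7119 and 6782 CPM, with 3 of 12 called higher and 0 lower. These 3 sums were higher in the positive cells of both lungs, and their part in the result was not tested. Of the 5 myeloid markers, 3 in lung 1 and 4 in lung 2 had no UMI, as had 1 of the 2 CD8 markers in each lung. Of 22 inhibitory and feedback genes 7 were higher in the positive cells, led by *Havcr2* with 1.67 (SE 0.37) and *Pdcd1* with 1.37 (SE 0.10), and 5 lower, such as *Socs3* with -1.59 (SE 0.15). Of 26 other immediate early genes 1 was higher and 9 lower, led by *Klf2* with -1.68 (SE 0.15).

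In IL-4eGFP+ node cells, those with a UMI of *Il21*, a cytokine of follicular helper cells, had more of each member tested. They were 101 to 140 cells per sample against 1870 to 1918 others. *Nr4a1* was at 60.5 to 102 CPM in *Il21*-positive and 19.8 to 28.6 CPM in the other cells of the 4 samples, a change of 1.92 (SE 0.14, adjusted p = 3.92e-09). *Egr1* was at 191 to 313 CPM against 108 to 115 CPM, a change of 1.14 (SE 0.10, adjusted p = 4.02e-08). *Egr2* was at 36.7 to 167 CPM against 24.4 to 33.0 CPM, a change of 1.49 (SE 0.20, adjusted p = 2.07e-05). For these 3 genes every positive set lay above every other set. *Nr4a3* changed by 1.44 (SE 0.31, adjusted p = 0.00388) and *Egr3* by 1.09 (SE 0.28, adjusted p = 0.0121). All 5 members tested were called, against 9.09% of genes, and *Nr4a2* was under the count filter. The *Egr3* call was lost by DESeq2 (adjusted p = 0.0579), without medLN 2 at 1.03 (adjusted p = 0.0903), without MLN 2 at 0.69 (adjusted p = 0.233) and in thinned cells, as was that of *Nr4a3* in thinned cells at 1.59 (adjusted p = 0.0582).

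The *Il21*-positive cells held 4384 to 6608 UMIs on average and the other cells 4557 to 5191. The B cell markers summed to 0 to 6.78 CPM in the positive and 24.7 to 47.0 CPM in the other cells and the myeloid markers to 119 to 156 CPM and 169.5 to 245 CPM. Both sums were lower in the positive sets without overlap, and their part in the result was not tested. Of 21 inhibitory and feedback genes tested 11 were higher and 1 lower, where 9.09% of all genes were called. The higher ones were led by *Pdcd1* with 1.79 (SE 0.09), *Tox* with 1.36 (SE 0.09) and *Tigit* with 1.25 (SE 0.07). Of 23 other immediate early genes tested 9 were higher, such as *Fos* with 1.56 (SE 0.28), and 4 lower, such as *Klf2* with -2.47 (SE 0.11). Among 23 partners tested the NFAT gene *Nfatc1* with 0.97 (SE 0.08) was higher and *Ppp3ca* with -1.85 (SE 0.24) lower.

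In lung and MLN, cells with a UMI of the cell cycle genes *Mki67* or *Top2a* had lower CPM of some members. They held more UMIs per cell. In lung 1, 300 cycling cells held 3042501 UMIs and 782 others 5442136, and in lung 2, 93 held 928195 and 323 held 1861503. In MLN 1, 343 held 3390003 and 2119 held 11051239, and in MLN 2, 101 held 1001587 and 653 held 3451292. A lower CPM is thus a lower share of UMIs and does not show fewer transcripts per cell. *Nr4a1* was at 847 and 632 CPM in cycling and 1041 and 825 CPM in other cells of lung, and at 24.5 and 12.98 CPM and 32.4 and 36.5 CPM in MLN. It was lower in the cycling cells of all 4 samples, with a change of -0.41 (SE 0.10, adjusted p = 0.00596). *Nr4a3* changed by -0.52 (SE 0.18, adjusted p = 0.0485) and *Egr1*, lower in 3 of 4 samples, by -0.43 (SE 0.12, adjusted p = 0.0139). Of 6 members 3 were called by edgeR, where 26.1% of genes were. DESeq2 called 2 of them and 1403 of 9619 genes. The call of *Nr4a3* was lost without lung 1 (adjusted p = 0.0620) or lung 2 (adjusted p = 0.190) and that of *Egr1* without MLN 1 (adjusted p = 0.0777), while *Nr4a2* was called without MLN 2 at -0.35 (adjusted p = 0.0299). In thinned cells the change of *Nr4a1* was -0.34 (adjusted p = 0.136), and without the sample as a block none of the 3 calls remained (adjusted p from 0.556 to 0.955). Of 26 other immediate early genes 2 were higher and 14 lower, such as *Btg1* with -0.92 (SE 0.07).

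Cells of expanded TCR clones and of clones seen once did not differ detectably in any member. With 0.195% of genes called, 0 of 6 members were called and 0 had an unadjusted p under 0.05 by edgeR or DESeq2, which 598 of 9756 genes had by edgeR. *Nr4a1* was at 965 and 922 CPM in expanded and 975 and 719 CPM in single-cell clones of lung 1 and lung 2, and its change over both organs was 0.13 (SE 0.07, adjusted p = 0.875).

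Among IL-4eGFP- node cells, those with a UMI of *Foxp3*, the factor of regulatory T cells, had *Egr1* at 92.6 to 166 CPM against 71.0 to 93.5 CPM. These ranges overlapped. The change was 0.48 (SE 0.11, adjusted p = 0.00375), and positive cells were higher in 4 of 4 samples. It was the 1 call among 5 members tested, where 24.4% of genes were called, so a called member is near the background here. *Nr4a1* with 0.45 (SE 0.21, adjusted p = 0.145) was not called, but was in thinned cells at 0.77 (adjusted p = 0.00138), as was *Nr4a3* at 1.46 (adjusted p = 0.0250). *Egr2* with 0.55 (SE 0.19, adjusted p = 0.0505) was not called, but was without the block (adjusted p = 0.0335). Of 19 inhibitory and feedback genes tested 12 were higher, led by *Tigit* with 4.09 (SE 0.17) and *Ctla4* with 3.85 (SE 0.08), and 1 lower.

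**Figure D3:**
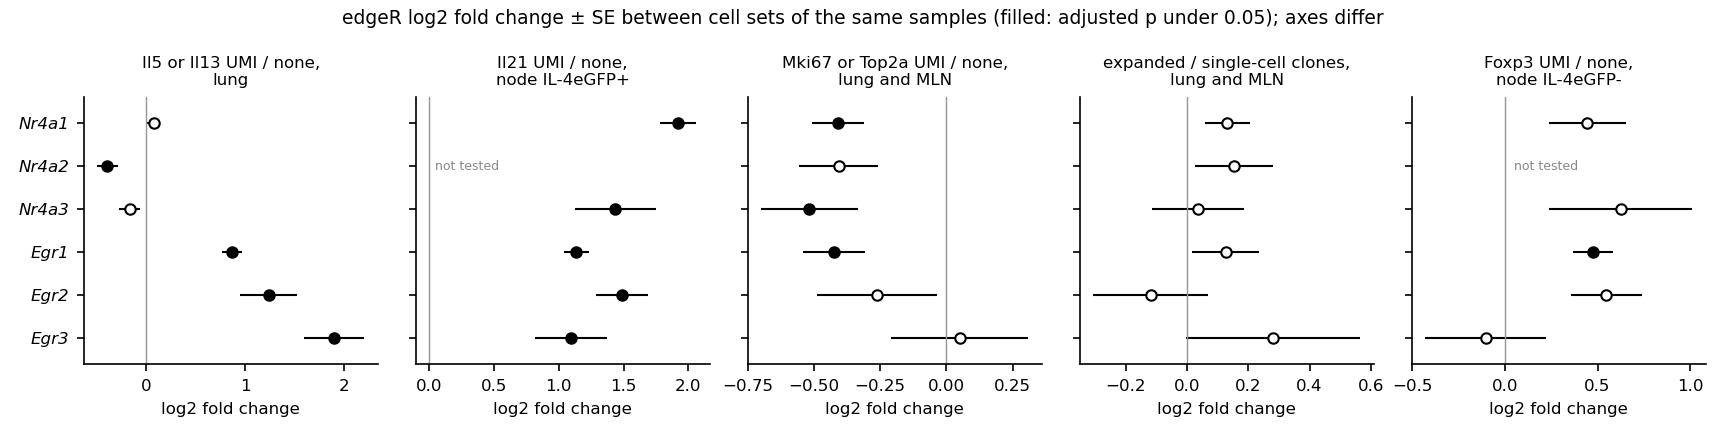
Log2 fold change (point) and standard error (bar) of each gene between sets of cells split by marker transcripts or clone size, filled where called. The 5 members tested lie at 1.09 to 1.92 for *Il21*-positive IL-4eGFP+ node cells, and the 3 EGR genes at 0.86 to 1.90 for *Il5* or *Il13* positive lung cells.

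In nodes most cells with an *Nr4a1* UMI also had an *Egr1* UMI, but most cells with *Egr1* had no *Nr4a1* UMI. In thinned cells of the 4 IL-4eGFP+ samples, *Egr1* was detected in 62.2% to 70.5% of the 37 to 68 cells with *Nr4a1* per sample and in 10.2% to 12.7% of cells without it. In IL-4eGFP- samples these shares were 53.9% to 67.2% and 5.27% to 6.39%. In MLN of the first experiment they were 53.7% and 70.6% against 9.09% and 9.78%. All node samples had this split. In lung, *Egr1* was detected in 15.4% and 16.7% of cells with and 10.03% and 10.7% of cells without *Nr4a1*. *Egr2* was detected in 37.8% to 46.3% against 3.38% to 4.80% of IL-4eGFP+ node cells, in 40.3% and 52.9% against 2.94% and 4.82% of MLN cells and in 2.58% and 2.51% against 2.17% and 0.592% of lung cells. In lung, cells with an *Nr4a1* UMI were many and few of them had a UMI of *Egr1* or *Egr2*, and free RNA there was not estimated.

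**Figure D4:**
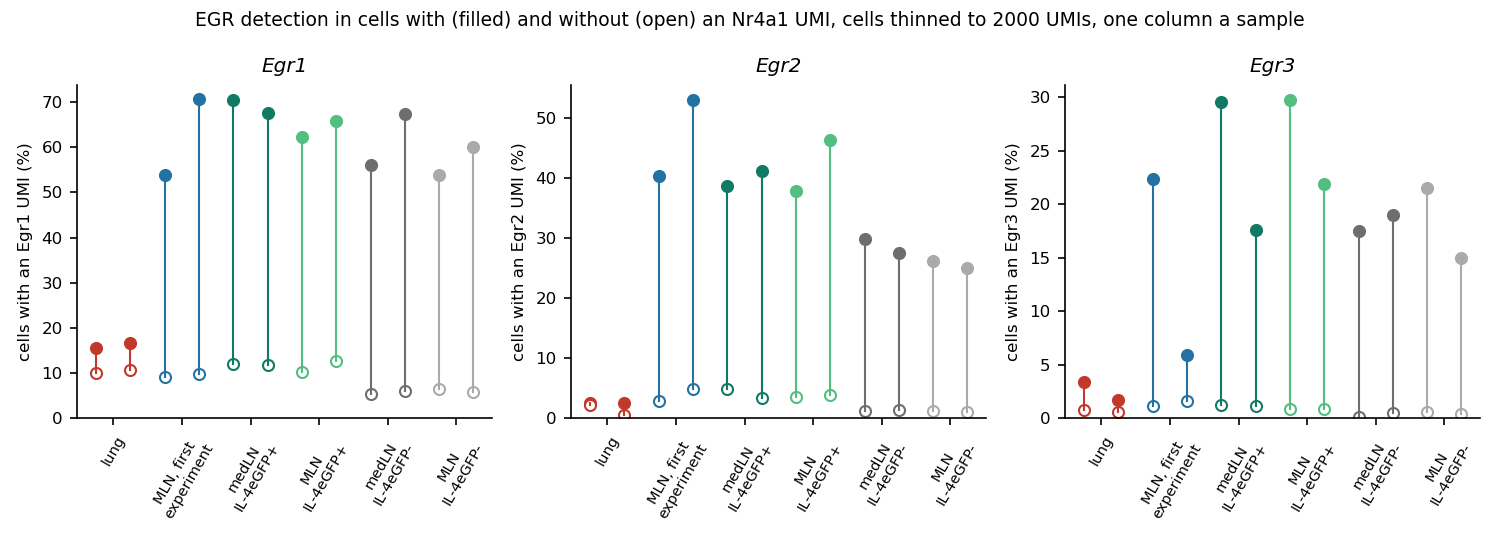
Share of cells (percent) with a UMI of *Egr1*, *Egr2* or *Egr3* among cells with and without an *Nr4a1* UMI, in each sample, after thinning to 2000 UMIs per cell. For *Egr1* the node samples lie at 53.7% to 70.6% with and 5.27% to 12.7% without *Nr4a1*, and the lung samples at 15.4% to 16.7% and 10.03% to 10.7%.

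Cells with at least 1 NR4A UMI were then compared with cells of the same sample that had none, and only EGR genes are read among the members since NR4A UMIs made the split. In IL-4eGFP+ node samples these were 79 to 108 against 1912 to 1974 cells. *Egr1* was at 519 to 789 CPM against 81.9 to 91.3 CPM, a log2 fold change of 2.97 (SE 0.09, adjusted p = 4.87e-20). *Egr2* was at 177 to 297 CPM against 17.9 to 24.6 CPM, a change of 3.51 (SE 0.13, adjusted p = 2.41e-18). *Egr3* was at 88.6 to 155 CPM against 3.83 to 4.57 CPM, a change of 4.89 (SE 0.19, adjusted p = 9.97e-18). All 3 were called where 9.24% of genes were, and no positive set overlapped a negative one. *Egr3*, *Egr2* and *Egr1* ranked 1, 9 and 17 by fold change among 10251 genes tested.

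In IL-4eGFP- node samples, with 11.6% of genes called, the 3 EGR genes were called as well. *Egr1* was at 589.8 to 876 CPM against 38.3 to 53.0 CPM, a change of 3.82 (SE 0.10), and the change was 4.48 (SE 0.18) for *Egr2* and 5.601 (SE 0.30) for *Egr3*. Cells with an NR4A UMI held more UMIs in all, 5283 to 7644 against 4549 to 5178 on average in IL-4eGFP+ and 4246 to 4642 against 3512 to 3598 in IL-4eGFP- samples. With cells thinned to 2000 UMIs before the split, the changes of *Egr1*, *Egr2* and *Egr3* were 3.28, 3.91 and 4.81 in IL-4eGFP+ and 4.12, 4.87 and 5.30 in IL-4eGFP- cells, all called.

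Beside the EGR genes, the leading genes of NR4A-positive IL-4eGFP+ node cells were the NF-κB regulator *Nfkbid* with 3.41 (SE 0.10), *Tnf* with 3.03 (SE 0.16), the histone demethylase *Kdm6b* with 2.99 (SE 0.14), *Tagap* with 2.93 (SE 0.14), the activation marker *Cd69* with 2.54 (SE 0.10), *Phlda1* with 2.42 (SE 0.20) and *Cd160* with 2.30 (SE 0.16). *Rflnb*, *BE692007*, *Txnip* and *Klf2* were among the lowest, from -1.45 (SE 0.10) to -1.11 (SE 0.09). In IL-4eGFP- cells *Nfkbid*, *Tagap*, *Tnf* and *Cd69* were again among the leading genes, beside *Irf4* with 3.28 (SE 0.19), *Rilpl2* with 2.71 (SE 0.15), the costimulatory receptor *Tnfrsf9* with 2.64 (SE 0.14) and *Bcl2a1b* with 2.44 (SE 0.12). There *Socs3*, *Tbxa2r*, *Tsc22d3*, *Pdlim4* and *Fam78a* were lowest, from -1.62 (SE 0.14) to -1.26 (SE 0.15). Of the other immediate early genes 19 of 24 tested were higher and 1 lower in IL-4eGFP+ and 16 of 23 higher and 1 lower in IL-4eGFP- cells.

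The other lists followed in part, where 9.24% of all genes were called in IL-4eGFP+ and 11.6% in IL-4eGFP- cells. The EGR corepressor and target *Nab2* was higher with 1.82 (SE 0.13) in IL-4eGFP+ and 1.98 (SE 0.16) in IL-4eGFP- cells. Of the partners 6 of 24 tested were higher and 1 lower in IL-4eGFP+, and 4 of 22 higher and 1 lower in IL-4eGFP- cells. Of the inhibitory and feedback genes 9 of 22 were higher and 2 lower in IL-4eGFP+ cells, led by *Fasl* with 3.11 (SE 0.29). In IL-4eGFP- cells 13 of 20 were higher, such as *Pdcd1* with 2.33 (SE 0.26), and 3 lower. Of the heat shock genes 9 of 11 and 8 of 10 were higher, such as *Hspa5* with 0.70 (SE 0.06) and 0.97 (SE 0.08). The Th2 marker sum was 626 to 1039 CPM in NR4A-positive and 316 to 371 CPM in other IL-4eGFP+ cells, the T cell marker sum 3169 to 4003 and 3694 to 3973 CPM, the B cell marker sum 0 to 38.6 and 23.7 to 44.0 CPM and the myeloid marker sum 141 to 233 and 170.5 to 241 CPM. The Th2 marker sums did not overlap, whereas the other sums did, and their part in the result was not tested.

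**Figure D5:**
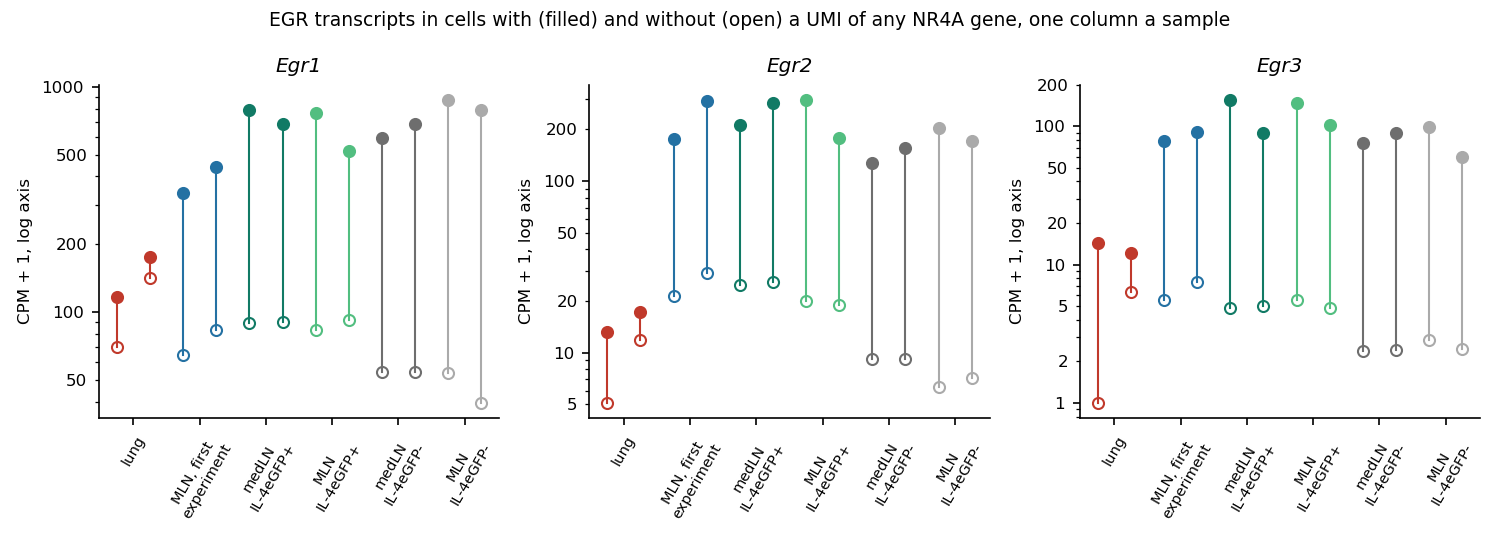
CPM + 1 (log axis) of the EGR genes in cells with (filled) and without (open) an NR4A UMI, with 1 column for each sample. *Egr1* lies at 519 to 789 CPM with and 81.9 to 91.3 CPM without an NR4A UMI in IL-4eGFP+ node samples, and at 116 and 175 CPM and 69.2 and 139.9 CPM in the lung samples.

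In lung and MLN together the EGR genes were also higher in NR4A-positive cells, with 1.86 (SE 0.24, adjusted p = 0.000171) for *Egr1*, 3.13 (SE 0.20, adjusted p = 7.67e-08) for *Egr2* and 3.92 (SE 0.27, adjusted p = 1.47e-07) for *Egr3*, where 2.6% of genes were called. *Egr1* was at 338 and 439 CPM in positive and 63.4 and 82.0 CPM in negative MLN cells. In lung it was at 116 and 175 CPM in 996 and 342 positive and 69.2 and 139.9 CPM in 86 and 74 negative cells. The step of *Egr1* was large in both MLN and small in both lungs. In thinned cells split by *Nr4a1* alone, *Egr2* was in 2.58% and 2.51% of lung cells with and 2.17% and 0.592% without it. In MLN these shares were 40.3% and 52.9% against 2.94% and 4.82%. *Egr3* was in 3.43% and 1.67% against 0.813% and 0.592% of lung and 22.4% and 5.88% against 1.195% and 1.65% of MLN cells. The joint changes of *Egr2* and *Egr3* thus do not give the step in lung. Positive cells of lung and MLN held 6971 to 8025 UMIs on average and negative cells 5023 to 5832. The split set most lung cells but few MLN cells apart as positive, so it does not part like sets in the 2 organs. A test of whether the split differed between the organs, chosen after seeing the data, gave -1.82 (SE 0.22, adjusted p = 1.21e-06) for *Egr1*, where 0.677% of genes were called. *Egr2* with -2.12 (SE 0.74, adjusted p = 0.265) and *Egr3* with -1.47 (SE 1.30, adjusted p = 0.874) did not pass. DESeq2 called 2 of the 3 EGR genes and 135 of 8852 genes in the joint comparison, without *Egr1* (adjusted p = 0.0998), and without the sample as a block edgeR called 0 genes there, with EGR changes of 1.62, 2.57 and 3.05. Beside the EGR genes, *Ccl1* with 5.52 (SE 0.35), *Il2* with 4.09 (SE 0.36), *Nfkbid* with 2.25 (SE 0.17) and *Kdm6b* with 2.02 (SE 0.18) led the joint comparison, and *Txnip* with -1.44 (SE 0.14) was lowest.

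Over the 12 samples, with log2(CPM + 1) centered within each experiment, *Btg2* (0.989), *Csrnp1* (0.984) and *Nfkbia* (0.982) were most like *Nr4a1* by Pearson r among the 2964 genes that averaged 50 CPM or more. Samples of an experiment share mice, and lung sets much of each value, so these r are descriptions. *Aff4* (0.960), *Emb* (0.960) and *Fli1* (0.959) were most like *Nr4a2*, and *Nfkbid* (0.966), *Nr3c1* (0.965) and *Jmjd1c* (0.964) most like *Nr4a3*. *Bcl10* (0.942), *Erp44* (0.941) and *Zmiz1* (0.929) were most like *Egr1*, *Trim8* (0.981), *Lbh* (0.977) and *Mrps21* (0.976) most like *Egr2* and *BC005537* (0.929), *Wnk1* (0.928) and *Wdr26* (0.928) most like *Egr3*. Between members r was 0.909 for *Nr4a1* with *Nr4a2*, 0.928 for *Nr4a1* with *Nr4a3* and -0.763 for *Nr4a1* with *Egr2*.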

How the data were processed

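Single-cell gene expression libraries of sorted CD4+ T cells were analysed from lung and MLN of 2 mice and, marked by hashtags, from medLN and MLN of 2 other mice. The deposited values are unnormalized UMI counts per gene, hashtag or TCR contig and cell barcode, which the authors made with Cell Ranger (3.0.1 in the file headers of the first experiment, where reads of 2 runs were combined and aligned to mm10, and 6.1.2 for the second, where both gates were aggregated). Cells needed more than 500 UMIs and 500 genes, less than 7% mitochondrial UMIs, a novelty above 0.8 and, in the first experiment, a productive TCRα and TCRβ chain. Hashtags were called with HTODemux of Seurat 5.3.0, and hashtag doublets and negatives were left out. No other doublet caller was used.

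UMI counts were summed per gene within each sample or cell set and tested with edgeR 4.0.16 (quasi-likelihood test, filterByExpr, TMM, two-sided, Benjamini-Hochberg threshold 0.05) in R 4.3.3. TCR genes and, for cell sets, the genes that define them were left out. Between organs, p-values rest on the spread between 2 mice per group and on dispersions that edgeR shares over genes. The gates and gate by organ were fitted on 8 samples of 2 mice, so both organs of a mouse count as separate samples. For cell sets p-values rest on how the difference between sets varied over samples, some of the same mouse, and on dispersions shared over genes. They do not rest on the spread between mice. Alternatives were DESeq2 1.42.0, its size factors in edgeR, no count filter, cells thinned to 2000 UMIs, a simple hashtag rule, cells without a TCR pair included or with several chains left out, each sample left out, the block added or removed and, added after seeing the data, library totals without TMM. Numbers pair samples of the same mouse, whose deviations over genes correlated by 0.0398 for lung and MLN, 0.235 and 0.117 for medLN and MLN in IL-4eGFP+ and IL-4eGFP- cells and 0.142 to 0.194 between gates. Some of the tests were checked on counts simulated with a fixed dispersion and no differences between mice. That check did not cover spread between mice or the split by *Il5* or *Il13*.

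The genes and lists were chosen with earlier results of these data known. All 6 members were tested where they passed the count filter and did not define the cell set. Not every member's value is printed for each comparison. Of each list at most the 3 called genes of largest change in each direction are named. For NR4A-positive cells the rule takes the 10 highest and 5 lowest called genes that average 50 CPM or more and moved alike in every sample, and for likeness the 3 genes of highest r. A planned comparison of cell sets and a gene that the rule names are not reported here.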

Additional observations from a re-analysis of the deposited data

Results flagged for a closer look

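In the 4 IL-4eGFP- node samples, *Nr4a2* stood apart in MLN 2, with 3.82 CPM (30 UMIs) against 0.779 to 1.12 CPM (6 to 9 UMIs) in the others. This was a gap of 0.888 of the range. The 30 UMIs came from 8 cells, with a highest cell of 15. In the 4 IL-4eGFP+ node samples, *Nr4a3* stood apart in medLN 2, with 9.41 CPM against 5.85 to 6.33 CPM, a gap of 0.866 of the range. Both exceed Dixon's 95% critical value for 4 samples, which chance passes in about 1 of 20 such groups, and 12 groups were examined.

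The difference in *Egr1* between cells with and without an NR4A UMI was smaller in lung than in MLN, with a difference of -1.82 (SE 0.22, adjusted p = 1.21e-06) on the log2 scale by edgeR. It was -1.85 by DESeq2, -2.33 in thinned cells and between -2.04 and -1.51 with each library left out. This test was chosen after seeing the data, and the split left 86 and 74 negative cells in lung 1 and lung 2 beside 996 and 342 positive ones.

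Lung cells that passed the filters but lacked a TCR pair enter the report only as an alternative. In these 523 cells of lung 1 and 208 cells of lung 2, *Egr1* was at 813.7 CPM and 1508 CPM, against 113 and 170.3 CPM in lung cells with a TCR pair and 82.4 and 93.3 CPM in the 348 and 145 MLN cells without one. *Nr4a1* was at 924 and 811 CPM in them and 971 and 761 CPM in lung cells with a TCR pair. In the lung cells without a pair the T cell markers summed to 2545 and 2522 CPM, the Th2 markers to 1909 and 1668 CPM, the myeloid markers to 323 and 204 CPM and the B cell markers to 1.57 and 45.9 CPM. The part of other cell types in the *Egr1* level was not tested.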

How the results depend on the processing

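Of 32 called results of single members, the call and its direction held in 135 alternatives and 122 fits with a sample left out, and the call was lost with the same direction in 22 and 6. The block changed no call of a member between organs or gates. The numbers of genes called were 3284 for lung over MLN, 144 for medLN over MLN (IL-4eGFP+), 19 for medLN over MLN (IL-4eGFP-), 6954 for the gates, 18 for gate by organ, 892 for *Il5* or *Il13*, 934 for *Il21*, 2506 for *Mki67* or *Top2a*, 19 for expanded clones, 2397 for *Foxp3*, 230 for NR4A in lung and MLN, 947 for NR4A in IL-4eGFP+ cells, 1126 for NR4A in IL-4eGFP- cells and 64 for NR4A by organ. With DESeq2 they were 1833 for lung over MLN, 37 for gate by organ, 94 for *Il5* or *Il13*, 601 for *Il21*, 1403 for *Mki67* or *Top2a*, 12 for expanded clones, 135 for NR4A in lung and MLN, 591 for NR4A in IL-4eGFP+ cells and 21 for NR4A by organ. With no count filter they were 47 for medLN over MLN (IL-4eGFP+), 2 for medLN over MLN (IL-4eGFP-), 68 for gate by organ, 167 for expanded clones, 353 for NR4A in lung and MLN and 126 for NR4A by organ. In thinned cells they were 2072 for lung over MLN, 6 for medLN over MLN (IL-4eGFP-), 10 for gate by organ, 236 for *Il5* or *Il13*, 512 for *Il21*, 386 for *Mki67* or *Top2a*, 1471 for *Foxp3*, 75 for NR4A in lung and MLN, 466 for NR4A in IL-4eGFP+ cells, 452 for NR4A in IL-4eGFP- cells and 40 for NR4A by organ. With the mouse as a replicate block they were 65 for medLN over MLN (IL-4eGFP-) and 44 for gate by organ. Without the replicate block they were 38 for *Il5* or *Il13*, 653 for *Mki67* or *Top2a*, 0 for expanded clones and 0 for NR4A in lung and MLN. With each sample left out the counts ranged from 1918 to 3673 for lung over MLN, from 13 to 166 for medLN over MLN (IL-4eGFP+), from 98 to 194 for medLN over MLN (IL-4eGFP-), from 6534 to 6753 for the gates, from 4 to 13 for gate by organ, from 597 to 833 for *Il21*, from 1431 to 2332 for *Mki67* or *Top2a*, from 6 to 27 for expanded clones, from 1728 to 2162 for *Foxp3*, from 137 to 175 for NR4A in lung and MLN, from 637 to 843 for NR4A in IL-4eGFP+ cells, from 755 to 814 for NR4A in IL-4eGFP- cells and from 66 to 154 for NR4A by organ. Among members that were not called, the log2 fold change turned direction. It was with DESeq2 -0.26 for *Egr3* (*Mki67* or *Top2a*), -0.15 for *Nr4a2* (expanded clones), -0.43 for *Nr4a3* (expanded clones) and -0.16 for *Egr3* (expanded clones). It was in thinned cells 0.00441 for *Nr4a3* (medLN over MLN (IL-4eGFP-)), 0.20 for *Nr4a3* (*Il5* or *Il13*), 0.16 for *Nr4a2* (*Mki67* or *Top2a*), -0.0549 for *Nr4a2* (expanded clones), -0.24 for *Nr4a3* (expanded clones) and 0.17 for *Egr2* (expanded clones). It was without the replicate block -0.11 for *Egr3* (*Mki67* or *Top2a*) and -0.00479 for *Egr3* (expanded clones). It was with library totals alone 0.00309 for *Egr2* (medLN over MLN (IL-4eGFP-)). It was with the simple hashtag rule 0.0136 for *Egr2* (medLN over MLN (IL-4eGFP-)). With a sample left out others turned. They ranged from -0.11 to 0.32 for *Egr3* (lung over MLN). They ranged from -0.0196 to 0.43 for *Nr4a1*, -0.81 to 0.0830 for *Nr4a2* and -0.16 to 0.16 for *Egr3* (medLN over MLN (IL-4eGFP+)). They ranged from -0.49 to 0.0639 for *Nr4a1*, -0.69 to 0.78 for *Nr4a3*, -0.28 to 0.12 for *Egr1*, -0.16 to 0.0651 for *Egr2* and -0.41 to 0.36 for *Egr3* (medLN over MLN (IL-4eGFP-)). They ranged from -0.0275 to 1.01 for *Nr4a2* (the gates). They ranged from -0.42 to 1.03 for *Nr4a3* and -0.34 to 0.41 for *Egr3* (gate by organ). They ranged from -0.68 to 0.10 for *Egr2* and -0.28 to 0.22 for *Egr3* (*Mki67* or *Top2a*). They ranged from -0.22 to 0.15 for *Nr4a3*, -0.73 to 0.0651 for *Egr2* and -0.34 to 0.49 for *Egr3* (expanded clones). They ranged from -2.88 to 5.11 for *Egr3* (NR4A by organ). NR4A by organ and library totals alone were chosen after seeing the data. The causes were not tested. Where a sample left out leaves 1 in a group, that sample is assumed to vary like the other group. Cells with *Il5* or *Il13* could not be fitted with a lung library left out, since no residual degrees of freedom remain. Low UMI counts of *Nr4a2* and of *Egr3* limit what can be seen of them.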

Other observations

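*Nr4a1*, *Nr4a2* and *Nr4a3* are among 44 genes with a promoter window of at least 4 CRE cores, of which 37 were tested between lung and MLN. Without these 3 genes, 12 of 34 were called, 9 higher and 3 lower in lung, which is near the 31% of all genes that were called, and their median log2 fold change was 0.09. Highest were *Ell2*, an elongation factor of RNA polymerase II, with 3.31 (SE 0.35, adjusted p = 0.000120) by edgeR and *Coq10b* with 2.78 (SE 0.25, adjusted p = 3.57e-05), and lowest *Etohd2* with -1.56 (SE 0.52, adjusted p = 0.0462). *Aff4*, the gene most like *Nr4a2* over samples, was in this group with 2.14 (SE 0.17, adjusted p = 1.69e-05). These genes were named after their values were seen.

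The members were spread unevenly over single cells. In thinned cells of lung 1 and lung 2, 20.1% and 29.2% held none of the 6 transcripts and 1.498% and 1.72% held 4 or more. In MLN 1 and MLN 2, 85.9% and 84.3% held none and 0.664% and 0.269% held 4 or more. In the 8 samples of the second experiment 83.2% to 91.6% held none and 0.405% to 0.710% held 4 or more.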
